A study of Mus musculus with 20 samples.

Results

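The genes described here are 10 genes of smooth muscle and of transforming growth factor beta (TGF-beta) signalling, chosen by symbol from 19505 genes measured on the arrays: Acta2, Tagln, Myh11, Cnn1, Myocd, Srf, Rgs5, Tgfb1, Tgfbr1 and Tgfbr2. Each of the 10 was measured by 1 probe set. Total RNA was hybridised to 20 expression arrays, 5 in each of 4 groups: Olfm2 knockout (KO) and wild-type (WT) mouse adipocytes of the depot labelled g, and KO and WT adipocytes of the depot labelled sc. The labels give the cells as adipocytes obtained from adipose tissue by differentiation in vitro. The labels describe only the genotype as KO or WT and do not give strain, sex, age, the deleted part of Olfm2 or the cells in which it was deleted. They do not spell out sc and g, and they do not say whether the samples came from separate cultures, so p-values reflect only how far these samples scatter, which may be technical.

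Smooth muscle cells and pericytes, the mural cells of blood vessels, contract through alpha smooth muscle actin and its partner proteins. The genes of these proteins are switched on by serum response factor (SRF), which binds a DNA element called the CArG box, together with its coactivator myocardin. TGF-beta is a secreted factor that is stored in a latent form, signals through a type II and a type I receptor to SMAD transcription factors, and induces both the contractile genes and genes of the extracellular matrix. In fat it is known to restrain the differentiation of preadipocytes. Olfm2 has been described as a factor that TGF-beta induces during smooth muscle differentiation and that acts with SRF.

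The sequences just before the annotated start sites of 5 of these genes are given below. Acta2 and Srf are shown for letters that match or nearly match the CArG box. The others are the 3 TGF-beta genes that were each called lower in KO than in WT adipocytes of the g depot. RefSeq promoter sequences (assembly GRCm38.p6) matched 7 of the 10 genes, and Tagln, Myh11 and Myocd had no entry. Each line below gives the 150 bases before the start site, on the strand of the gene. For Acta2 (chr19:34255374-34255523, minus strand) and Srf (chr17:46556163-46556312, minus strand) the capitals mark CArG boxes, for Srf exact ones and for Acta2 ones with 1 G or C among the 6 middle letters. For Tgfb1 (chr7:25686852-25687001, plus strand), Tgfbr1 (chr4:47353072-47353221, plus strand, the first of its 2 listed start sites) and Tgfbr2 (chr9:116175364-116175513, minus strand) the capitals mark GGGCGG and CCAAT on either strand.
Acta2: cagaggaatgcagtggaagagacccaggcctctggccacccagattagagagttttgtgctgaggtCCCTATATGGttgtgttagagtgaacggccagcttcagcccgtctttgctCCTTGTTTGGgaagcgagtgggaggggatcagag
Srf: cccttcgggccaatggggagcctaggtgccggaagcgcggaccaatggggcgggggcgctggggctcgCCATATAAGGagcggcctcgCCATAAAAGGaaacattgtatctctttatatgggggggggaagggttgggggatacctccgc
Tgfb1: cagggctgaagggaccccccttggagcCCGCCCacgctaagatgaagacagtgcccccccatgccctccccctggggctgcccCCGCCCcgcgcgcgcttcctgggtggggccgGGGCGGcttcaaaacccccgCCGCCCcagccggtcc
Tgfbr1: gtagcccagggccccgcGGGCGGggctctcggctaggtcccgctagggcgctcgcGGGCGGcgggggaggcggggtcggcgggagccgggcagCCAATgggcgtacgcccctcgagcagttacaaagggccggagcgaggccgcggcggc
Tgfbr2: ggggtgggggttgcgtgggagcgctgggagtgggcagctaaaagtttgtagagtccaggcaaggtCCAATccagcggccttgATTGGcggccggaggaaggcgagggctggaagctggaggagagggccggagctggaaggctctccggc
In the 250 bases before the start site, Srf held exact CArG boxes beginning 82 and 62 bases before it, CCATATAAGG and CCATAAAAGG. Acta2 held no exact box there. A search that allows 1 G or C in the middle, added after this was seen, found CCCTATATGG and CCTTGTTTGG in Acta2, beginning 84 and 34 bases before it. Of all 32851 promoters of the same length 1.47% held an exact CArG box and 7.24% one with 1 G or C in the middle. Tgfbr2 also held such a near match, CCTTGATTGG, 73 bases before the start site, which overlaps its second CCAAT match. The smooth muscle genes Cnn1 and Rgs5 held neither an exact nor a near CArG match there, nor did Tgfb1 and Tgfbr1. The short motifs are common: GGGCGG stood in 32.7%, CCAAT in 33.8% and TATATA, found only in Rgs5 among the 7, in 5.25% of all promoters. The CAGAC core of SMAD elements stood in 42.2% of them, and among the 7 genes in Acta2, Srf, Tgfbr1 (at its other start site) and Tgfbr2. A match is a run of letters only, and binding was not measured.

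The knockout label was checked on Olfm2 first. Its log2 signal was 3.49, 2.98, 3.58, 2.67 and 3.36 on the sc KO arrays, against 4.28, 5.25, 5.02, 5.21 and 4.62 on the sc WT arrays. It was 3.43, 3.61, 3.36, 3.56 and 3.72 on the g KO arrays, against 4.30, 4.60, 4.08, 4.54 and 4.17 on the g WT arrays. The genotypes did not overlap in either depot (KO minus WT -1.66, SE 0.19, limma adjusted p = 0.000152 in sc, and -0.80, SE 0.19, adjusted p = 0.00784 in g). The signals were dim: Olfm2 was above the array median of 5222 negative control probe sets on 3 of the 20 arrays, all sc WT, and above their 95th percentile on 0, and every g WT value lay below that median. The sizes of these differences are therefore uncertain. Here and below values are on the log2 scale, the SE is that of the limma fit, values of KO arrays follow the titles sc300KO, sc306KO, sc317KO, sc318KO and sc320KO, values of WT arrays follow sc286WT, sc287WT, sc307WT, sc308WT and sc309WT, and g arrays carry the same numbers.

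As to the labelled cell type, 11 mature adipocyte markers averaged 11.15 to 11.38 on g KO and 10.64 to 11.04 on g WT arrays, and 11.44 to 11.57 on sc KO and 11.15 to 11.47 on sc WT arrays. Markers of other cells were present too, which departs from a label of adipocytes differentiated in vitro. Here and below adipocytes is the labels' word for whole samples, and differences are those of whole samples. The mean of 9 endothelial markers was 8.39 in g KO, 8.20 in g WT, 8.35 in sc KO and 8.67 in sc WT. The mean of 11 macrophage markers was 9.03 to 9.55 on g KO and 9.77 to 10.2 on g WT arrays, and 8.27 to 8.71 on sc KO and 8.52 to 8.87 on sc WT arrays. Hepatocyte markers averaged above 7 on 8 arrays (2 sc KO, 4 g KO and 2 g WT). Skeletal muscle markers averaged above 7 on 3 arrays (sc317KO, sc286WT and sc307WT), and lymphocyte markers above 8 on 3 (sc317KO, sc320KO and sc286WT). The RNA came from whole samples, in which fewer cells of a type and less RNA per cell cannot be told apart.

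**Figure D1:**
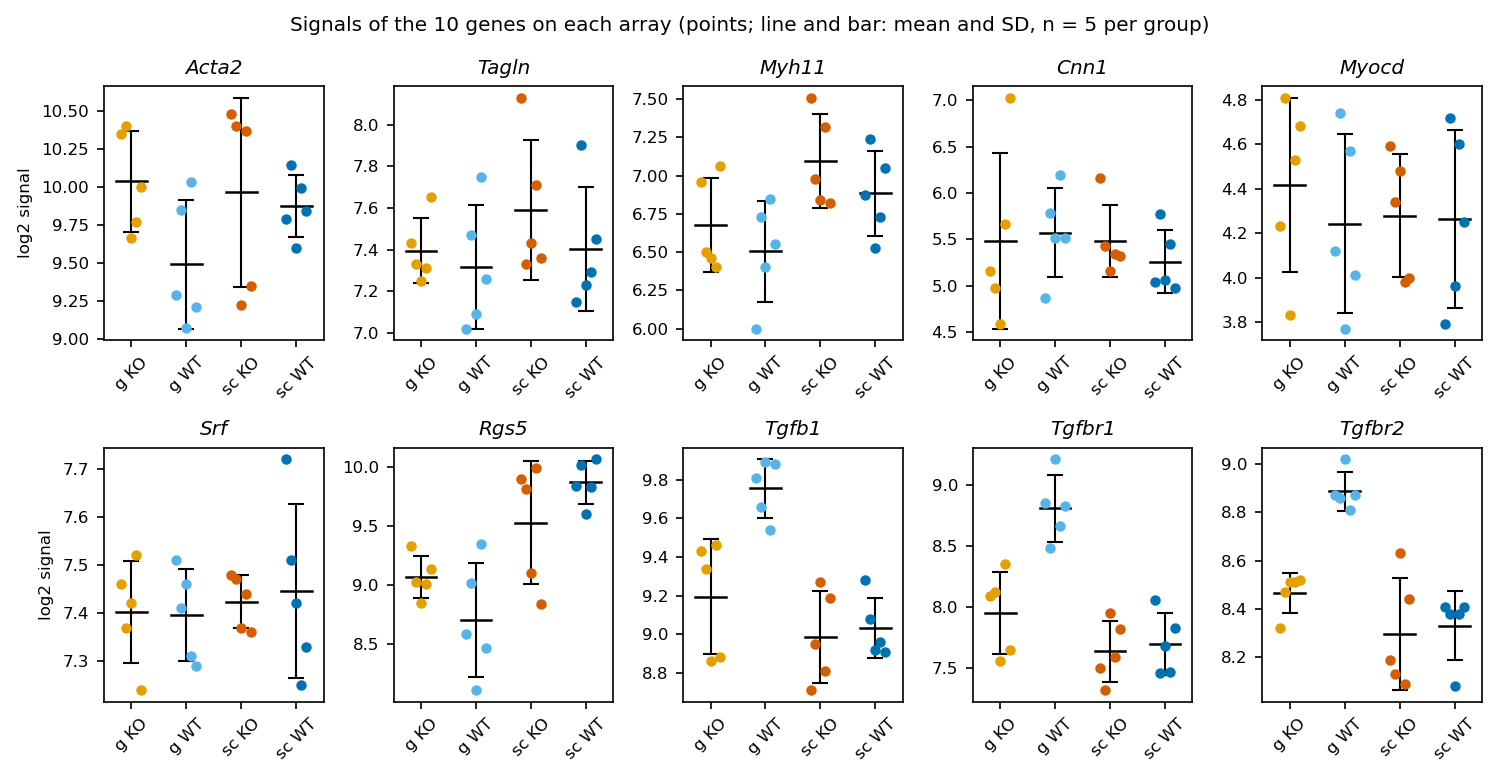
Log2 signal of the 10 genes on the 20 arrays, with 1 panel per gene and its own vertical scale. Points are arrays, lines and bars are the mean and SD of the 5 arrays of a group. Tgfb1, Tgfbr1 and Tgfbr2 stand highest on the g WT arrays, while Srf spans only 7.24 to 7.72 over all arrays.

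In the g depot the genes of TGF-beta 1 and of both its signalling receptors were lower in KO than in WT adipocytes, and no KO array reached the lowest WT array for any of them, while none of the 7 smooth muscle genes passed the test. Of the 10 genes 3 fell and 0 rose, where limma called 11.3% of all genes, 5.01% as higher and 6.27% as lower. The groups did not overlap for 3 of the 10 genes and for 10.4% of all genes. The median difference of the 10 genes was 0.04 and that of all genes 0.02.

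Tgfb1 encodes the ligand. Its signal was 9.43, 9.34, 8.86, 9.46 and 8.88 on the g KO arrays, against 9.81, 9.66, 9.89, 9.54 and 9.88 on the g WT arrays. All 5 KO arrays lay below the lowest WT array, and g317KO and g320KO lay furthest below. The difference was -0.56 (SE 0.14, 95% interval -0.85 to -0.28, adjusted p = 0.00996).

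Tgfbr1 encodes the type I receptor, the kinase that phosphorylates SMAD2 and SMAD3. It was at 8.09, 8.12, 7.56, 8.35 and 7.65 on the g KO arrays, against 8.85, 8.48, 9.21, 8.66 and 8.83 on the g WT arrays. Again g317KO and g320KO were the lowest, and no KO array reached the lowest WT value. The difference of -0.85 (SE 0.17, 95% interval -1.20 to -0.50, adjusted p = 0.00241) was the largest among the 10 genes in this comparison, 0.554 of the WT signal on the linear scale.

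Tgfbr2 encodes the type II receptor, which binds the ligand and activates the type I receptor. Its signal was 8.32, 8.47, 8.51, 8.51 and 8.52 on the g KO arrays, against 8.87, 8.86, 9.02, 8.81 and 8.87 on the g WT arrays. Both groups were tight, with SDs of 0.086 in KO and 0.080 in WT arrays (n = 5 each). The difference was -0.42 (SE 0.10, 95% interval -0.62 to -0.21, adjusted p = 0.00869). For each of these 3 genes the exact two-sided permutation p was 0.00794, the smallest that 5 arrays against 5 can give.

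The falls went with marker levels that differed between the same groups. Of 11 macrophage markers 9 fell in g KO adipocytes and 1, Cd163, named after its values were seen, rose (median -0.89). Of all genes 6.27% were called lower in this comparison and 5.01% higher. With the macrophage mean as a covariate limma called none of the 3 genes, at -0.19 for Tgfb1 (adjusted p = 0.884), -0.26 for Tgfbr1 (0.851) and -0.32 for Tgfbr2 (0.651). This covariate does not overlap between the genotypes in g, and with it limma called 1 gene of 19505. Of 11 adipocyte markers 8 rose (median 0.46). Without the 8 hepatocyte-high arrays, which leaves a single g KO array taken to scatter as the remaining groups do, the differences were -0.38 for Tgfb1 (adjusted p = 0.468), -0.75 for Tgfbr1 (0.37) and -0.60 for Tgfbr2 (0.252). With the hepatocyte mean as a covariate Tgfb1 was not called (-0.38, adjusted p = 0.0722). The part of these cells in the differences was not tested beyond these fits.

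**Figure D2:**
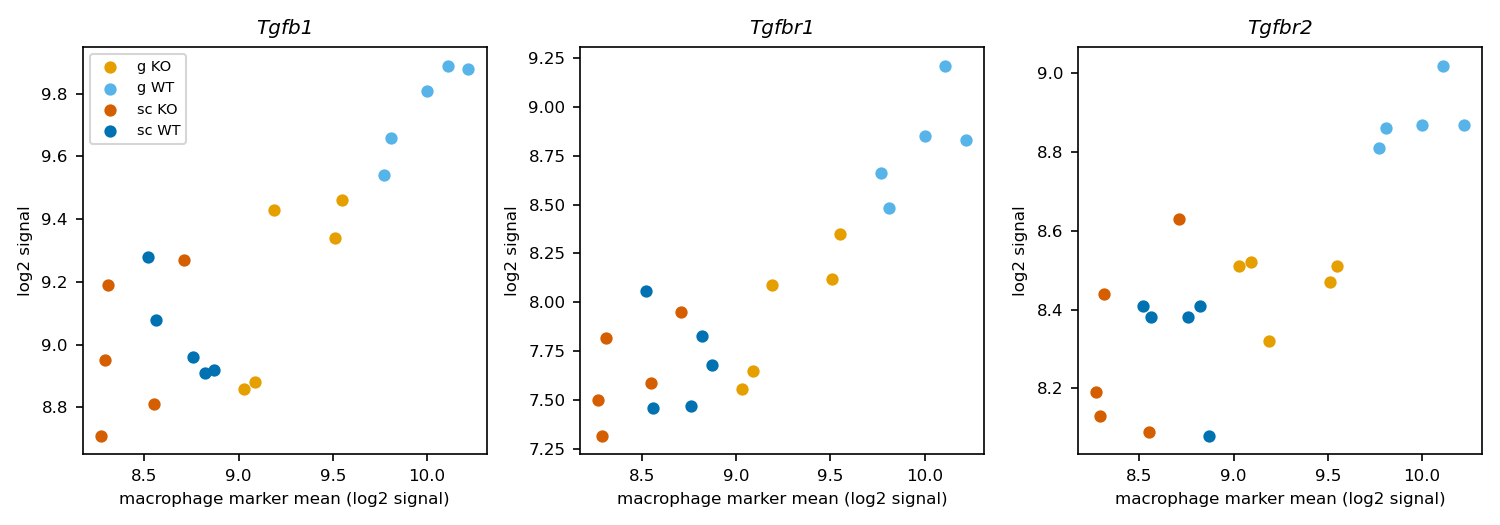
Log2 signal of Tgfb1, Tgfbr1 and Tgfbr2 (vertical axes) against the mean log2 signal of 11 macrophage markers (horizontal axes) on the 20 arrays, coloured by group. The 5 g WT arrays lie at the upper right, with macrophage means of 9.77 to 10.2, and the g KO arrays below them at 9.03 to 9.55. Within groups none of these 3 relations passed the test.

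The contractile genes gave no call in g. Acta2, which encodes alpha smooth muscle actin, was at 10.35, 10.40, 9.66, 9.77 and 10.00 on the g KO arrays, against 9.29, 9.85, 9.07, 10.03 and 9.21 on the g WT arrays. Its KO values lay mostly above the WT ones, but g287WT and g308WT reached into the KO range. The difference of 0.54 (SE 0.25, 95% interval 0.03 to 1.06) had an unadjusted p of 0.04 and an adjusted p of 0.18 in limma. Of all its alternatives the highest value was 0.97 and the lowest -0.02, and adjusted p ran from 0.0566 to 0.997.

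Tagln, which encodes the actin-binding protein transgelin, was at 7.43, 7.33, 7.25, 7.31 and 7.65 on g KO arrays, against 7.02, 7.47, 7.09, 7.75 and 7.26 on g WT arrays (difference 0.07, adjusted p = 0.851). The KO values lay within the WT range. Myh11, the smooth muscle myosin heavy chain and the most restricted marker of this cell type, was at 6.96, 6.50, 6.46, 6.40 and 7.06, against 6.0, 6.73, 6.40, 6.85 and 6.55 on WT arrays (0.17, adjusted p = 0.634). Cnn1, calponin 1, which damps the actin-activated ATPase of myosin, was at 5.16, 4.97, 4.59, 5.67 and 7.03, against 4.87, 5.78, 5.51, 6.19 and 5.51 on WT arrays (-0.09, adjusted p = 0.919). g320KO was the highest of all 20 arrays for Cnn1, and the SD of the g KO group, 0.95, was the largest of any of the 10 genes in any group.

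The regulators of the contractile genes gave no call. Srf was at 7.46, 7.37, 7.42, 7.52 and 7.24 on g KO arrays, against 7.51, 7.41, 7.46, 7.31 and 7.29 on g WT arrays, a difference of 0.01 with a 95% interval of -0.17 to 0.18 (adjusted p = 0.979). Myocd, the gene of myocardin, was at 4.23, 4.81, 3.83, 4.53 and 4.68, against 4.12, 4.74, 3.77, 4.57 and 4.01 on WT arrays (0.17, adjusted p = 0.698). Myocd was above the array median of the negative control probe sets on 6 of the 20 arrays and above their 95th percentile on 0, so its probe set gives little information on change. Cnn1 exceeded the median on all 20 and the 95th percentile on 0, Myh11 exceeded the 95th percentile on 2, Tagln on 15, Srf on 16, and the other 5 genes on all 20.

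Rgs5, a regulator of G protein signalling used as a pericyte marker, was at 9.33, 9.03, 8.85, 9.01 and 9.14 on g KO arrays, against 8.59, 9.02, 8.11, 9.35 and 8.47 on g WT arrays. The groups overlapped, and the difference of 0.37 (SE 0.22) had an adjusted p of 0.341.

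In the sc depot none of the 10 genes differed between KO and WT adipocytes by limma, where 0.677% of all genes were called. At an unadjusted p under 0.05 there were also 0 of the 10. The differences ran from -0.34 (Rgs5) to 0.22 (Cnn1), with a median of -0.01 for the 10 genes and 0.01 for all genes, and the groups overlapped for all 10, while 2.94% of all genes had no overlap. For Tgfb1 the values were 8.71, 8.95, 9.27, 8.81 and 9.19 on sc KO arrays, against 9.28, 9.08, 8.92, 8.96 and 8.91 on sc WT arrays. The difference was -0.04 with a 95% interval of -0.33 to 0.24 (adjusted p = 0.957). Tgfbr1 was at 7.50, 7.32, 7.95, 7.59 and 7.82 in KO, against 8.06, 7.46, 7.68, 7.47 and 7.83 in WT (-0.06, interval -0.41 to 0.29, adjusted p = 0.945). Tgfbr2 was at 8.19, 8.13, 8.63, 8.09 and 8.44 in KO, against 8.41, 8.38, 8.08, 8.38 and 8.41 in WT (-0.04, interval -0.25 to 0.17, adjusted p = 0.943).

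The sc KO arrays fell apart for some of these genes. Acta2 was at 10.48, 10.40 and 10.37 on sc300KO, sc306KO and sc318KO and at 9.22 and 9.35 on sc317KO and sc320KO, against 9.79, 10.14, 9.60, 9.99 and 9.84 on the sc WT arrays. Rgs5 was at 9.90, 9.82 and 9.99 on the same 3 KO arrays and at 9.10 and 8.84 on sc317KO and sc320KO, against 9.84, 10.02, 9.60, 9.83 and 10.07 in WT. For the 3 TGF-beta genes the order was turned, with sc317KO and sc320KO the highest of the KO group. These are the arrays with lymphocyte means of 8.71 and 8.47, against 5.12 to 5.22 on the other 3. Their skeletal muscle means, 7.44 and 6.81, were also the highest of the sc KO group (5.19 to 5.68 on the other 3). On sc286WT, the other lymphocyte-high array (8.3), Acta2 and Rgs5 lay within the range of the other sc WT arrays. Tgfb1 (9.28) and Tgfbr1 (8.06) were the highest of the sc WT group on sc286WT. Without the 3 lymphocyte-high arrays the KO minus WT difference was 0.52 for Acta2 (adjusted p = 0.521), its highest under any alternative, and 0.02 for Rgs5 (adjusted p = 0.997). The part of lymphocyte or skeletal muscle RNA in this split was not tested.

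The other smooth muscle genes were close in sc. Tagln averaged 7.59 ± 0.34 in KO and 7.41 ± 0.30 in WT adipocytes (SD, n = 5 each, adjusted p = 0.768), and its highest arrays were sc300KO at 8.13 and sc287WT at 7.90. Myh11 averaged 7.09 ± 0.30 in KO and 6.88 ± 0.27 in WT (adjusted p = 0.761), and Cnn1 5.48 ± 0.39 in KO and 5.26 ± 0.34 in WT (adjusted p = 0.883). Srf averaged 7.42 ± 0.057 in KO and 7.45 ± 0.18 in WT (adjusted p = 0.957), where sc286WT, the array richest in skeletal muscle markers, was highest at 7.72. Myocd averaged 4.28 ± 0.28 in KO and 4.26 ± 0.40 in WT (adjusted p = 0.991).

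The difference of the KO effects between depots was tested directly, as g minus sc. It was -0.79 for Tgfbr1 (SE 0.24, unadjusted p = 0.00353, adjusted p = 0.183), -0.52 for Tgfb1 (SE 0.19, adjusted p = 0.268), -0.38 for Tgfbr2 (SE 0.14, adjusted p = 0.268) and 0.71 for Rgs5 (SE 0.31, adjusted p = 0.347). None of the 10 passed, where 0.0769% of all genes did (0.0410% higher and 0.0359% lower), and the other 6 lay between -0.31 and 0.45. The falls of the 3 TGF-beta genes are thus not shown to be particular to the g depot.

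**Figure D3:**
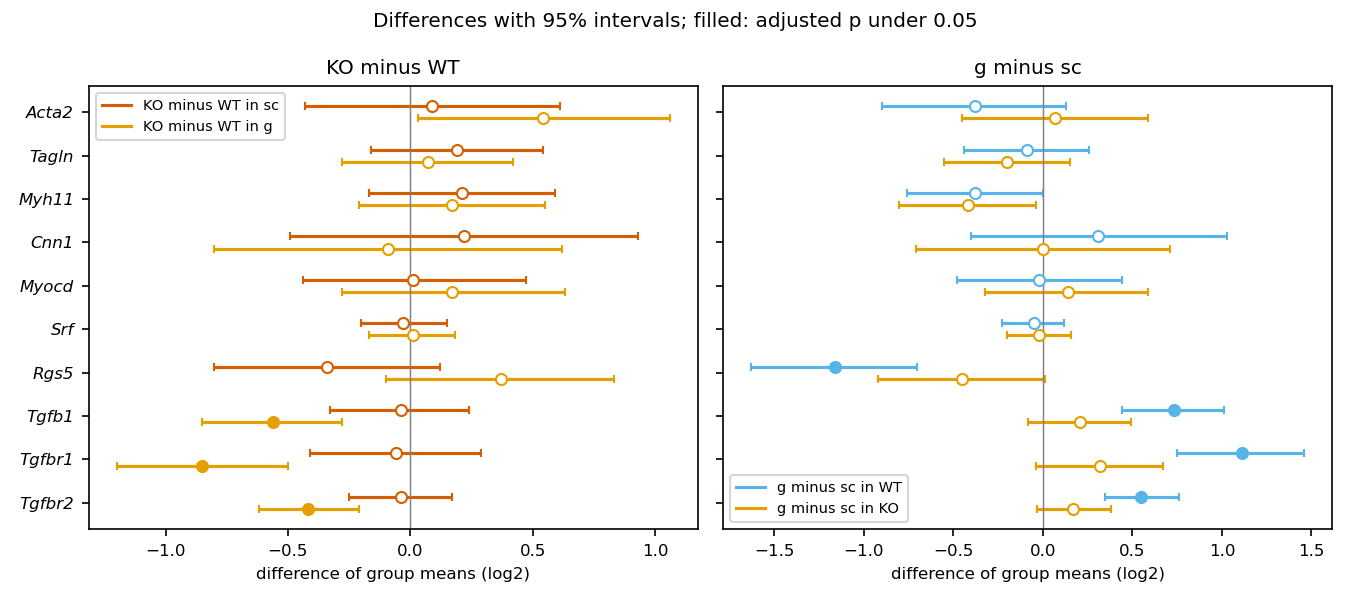
Differences of group means in log2 units with 95% intervals for the 10 genes, KO minus WT at the left and g minus sc at the right. Filled points have an adjusted p under 0.05, which holds for Tgfb1, Tgfbr1 and Tgfbr2 in g KO against g WT and for these and Rgs5 in g WT against sc WT.

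Among WT adipocytes the depots differed for 4 of the 10 genes, with Tgfb1, Tgfbr1 and Tgfbr2 higher and Rgs5 lower in g than in sc. The share called over all genes was 17.8%, with 9.30% higher and 8.48% lower, and the arrays of the depots did not overlap for 4 of the 10 genes and for 16.1% of all. Tgfbr1 was 1.11 higher (SE 0.17, adjusted p = 0.000102), 2.15 times the sc signal on the linear scale. Tgfb1 was 0.73 higher (SE 0.14, adjusted p = 0.000736) and Tgfbr2 0.55 higher (SE 0.10, adjusted p = 0.000498). Rgs5 was at 8.11 to 9.35 on g WT arrays, against 9.60 to 10.07 on sc WT arrays, a difference of -1.16 (SE 0.22, adjusted p = 0.000857). Myh11 differed by -0.38 (SE 0.18, adjusted p = 0.167) and Acta2 by -0.38 (SE 0.25, adjusted p = 0.326). The remaining 4 genes lay between -0.09 and 0.31.

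Markers of several cell types moved in the same comparison. In g WT against sc WT adipocytes 10 of 11 macrophage markers were higher (median 1.47), 10 of 11 adipocyte markers lower (median -0.57) and 7 of 12 pericyte markers lower (median -0.51), beside a median of -0.04 for all genes. Of 8 mesothelial markers 6 were higher in g (median 1.10), and of 9 endothelial markers 3 were lower, with all 9 below 0 (median -0.39). Between the WT depots 9.30% of all genes were called higher and 8.48% lower in g. In KO adipocytes 7 of the 8 mesothelial markers (median 1.5) and 9 of the 11 macrophage markers (median 0.83) were higher in g, beside 2.87% of all genes. Of the 11 adipocyte markers 0 were called there (median -0.24). The part of these cell types in the differences was not tested. In WT adipocytes, with the macrophage mean as a covariate, limma called 0 of the 10 genes. The differences were 0.06 for Tgfb1 (adjusted p = 0.98), 0.04 for Tgfbr1 (0.989), 0.38 for Tgfbr2 (0.703) and -0.25 for Rgs5 (0.939). The macrophage means of the depots do not overlap in WT, and with this covariate limma called 1 gene in all.

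Among KO adipocytes none of the 10 genes differed between the depots, where 4.13% of all genes were called, 2.87% as higher and 1.27% as lower. At an unadjusted p under 0.05 there was 1 of the 10, Myh11. Tgfbr1 was 0.32 higher in g (SE 0.17, adjusted p = 0.355), Tgfb1 0.21 higher (SE 0.14, adjusted p = 0.469) and Tgfbr2 0.17 higher (SE 0.10, adjusted p = 0.39), and Rgs5 differed by -0.45 (SE 0.22, adjusted p = 0.301). Without the 3 lymphocyte-high arrays Rgs5 passed, at -0.83 (adjusted p = 0.0312). The other 6 genes lay between -0.42 and 0.14. This comparison shares its g KO and sc KO arrays with the KO minus WT comparisons of each depot, so its values are not a separate support for those. Ordered by group mean, Tgfbr1 was 7.64 in sc KO, 7.70 in sc WT, 7.95 in g KO and 8.81 in g WT. In this order the neighbours sc KO and sc WT overlapped, and so did sc WT and g KO. Tgfb1 (8.99, 9.03, 9.19 and 9.76) and Tgfbr2 (8.29, 8.33, 8.47 and 8.88) had the same order of groups.

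Arrays of the same group varied together for several of the 10 genes. After the mean of each group was subtracted, Acta2 and Rgs5 had a Pearson r of 0.90 over 20 arrays (permutation p = 9e-05, adjusted p = 0.00255 over 85 relations) and a Spearman rho of 0.92 (permutation p = 7e-05, adjusted p = 0.00149), and r was 0.88 without the 2 arrays furthest from the median of Acta2. Tagln and Myh11 had an r of 0.86 (permutation p = 1e-05, the smallest the 100000 resamples can give, adjusted p = 0.00085) and a rho of 0.81 (permutation p = 4e-05), with r = 0.84 without the 2 furthest arrays. Tgfb1 and Tgfbr1 had an r of 0.79 (permutation p = 0.00059, adjusted p = 0.00836) and a rho of 0.76 (permutation p = 0.0011), with r = 0.72 without 2 arrays. By Pearson's r 10 of the 45 pairs of the 10 genes had an adjusted permutation p under 0.05, and by Spearman's rho 5 did. Of the 10, 9 were among Acta2, Tagln, Myh11, Cnn1, Myocd and Rgs5. Srf was in none of them, and its r with the 5 contractile and myocardin genes ran from -0.33 to 0.04. Of 10 marker lists first set beside the 10 genes, 4 were kept for testing after the values were seen, so the 85 relations were picked with values known. Lists left out were not tested. Within groups the lymphocyte mean had r = 0.68 with Tgfb1, 0.58 with Tgfbr1 and 0.71 with Tgfbr2. In the same order r was -0.68, -0.41 and -0.18 with the hepatocyte mean, and -0.67, -0.59 and 0.11 with the mesothelial mean. The lymphocyte mean was above 8 on sc317KO, sc320KO and sc286WT and at 5.12 to 5.55 on the other sc arrays, so these 3 weigh heavily in its r. For the lists left out r was not recomputed without the furthest arrays. With the macrophage mean none of the TGF-beta genes passed within groups (r = 0.47 for Tgfb1, adjusted permutation p = 0.153; 0.59 for Tgfbr1, 0.0696; 0.18 for Tgfbr2, 0.565). With the adipocyte mean Tgfbr2 passed by both measures (r = -0.49, adjusted permutation p = 0.0477; rho = -0.62, 0.0438; r = -0.49 without the 2 furthest arrays). Tgfbr1 passed by r only (r = -0.63, adjusted permutation p = 0.0294; rho = -0.52, 0.103; r = -0.61 without 2), and Tgfb1 by neither (r = -0.48, 0.0696; rho = -0.44, 0.116). Acta2 also varied with the mean of 9 endothelial markers (r = 0.90, rho = 0.87, permutation p = 4e-05 and 5e-05, r = 0.86 without 2 arrays), as did Rgs5 (r = 0.83, rho = 0.85, permutation p = 0.00016 and 2e-05, r = 0.87 without 2). Both passed with the pericyte mean too. Acta2 had r = 0.82 (adjusted permutation p = 0.0188) and rho = 0.77 (0.0373), with r = 0.73 without 2 arrays. Rgs5 had r = 0.80 (0.0188) and rho = 0.78 (0.0373), with r = 0.80 without 2. Arrays of a group share the same depot and genotype, and sc317KO and sc320KO are low in both Acta2 and the endothelial mean (7.90 and 7.98, against 8.58 to 8.68 on the other 3).

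**Figure D4:**
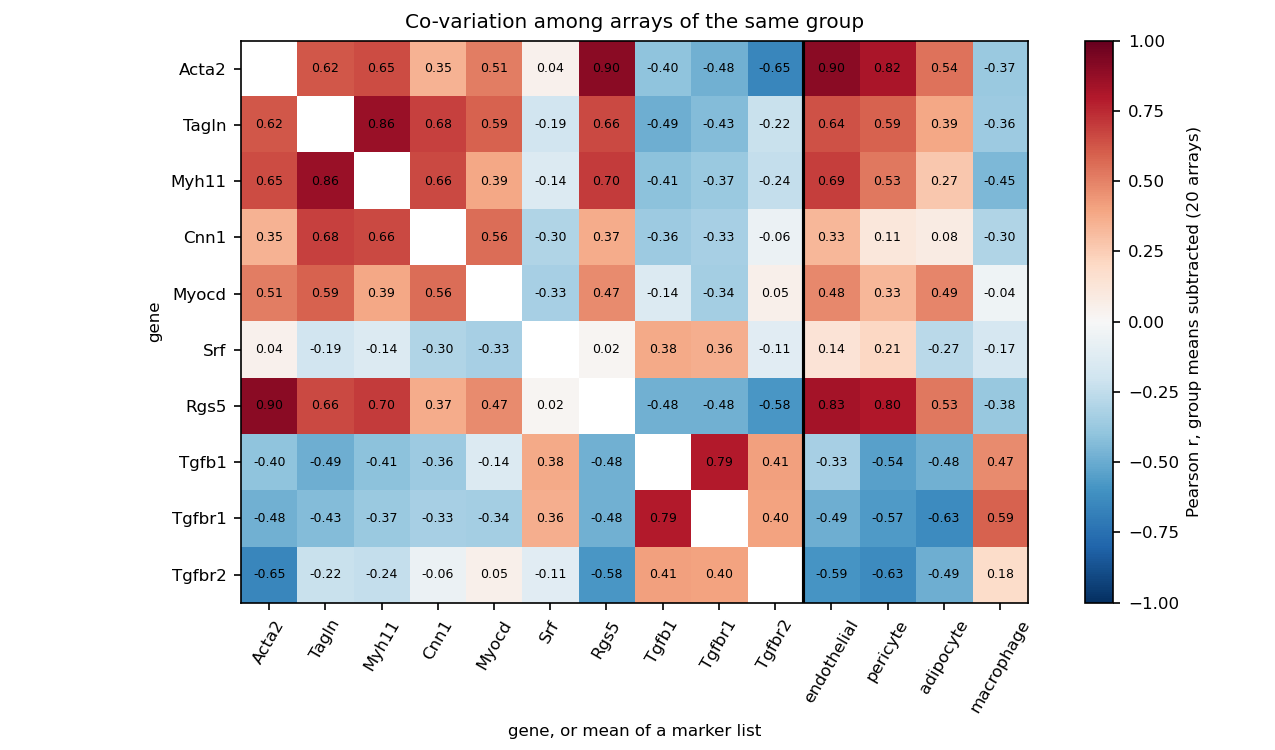
Pearson r between the 10 genes, and with the mean of 4 marker lists at the right, over 20 arrays after group means were subtracted. The block of positive values holds Acta2, Tagln, Myh11, Cnn1, Myocd and Rgs5 (0.35 to 0.90), Tgfb1 with Tgfbr1 reaches 0.79, and Srf stands apart.

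The genes whose pattern over the 20 arrays was most like the mean of standardised Acta2, Tagln, Myh11 and Cnn1 were Myl9, the smooth muscle myosin regulatory light chain (r = 0.84), Rnf125, a ubiquitin ligase (0.82), Nbeal1 (0.81), the homeobox gene Hoxb6 (0.76) and Map7, a microtubule-associated protein (0.75). With group means subtracted they were Fgd5, an endothelial guanine nucleotide exchange factor (0.88), Myl9 (0.87), Rnf125 (0.87), Eogt, a glycosyltransferase (0.85), and Tjp1, the tight junction protein ZO-1 (0.85). These were picked as the highest of all genes and are given as a description.

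Of 16 further contractile genes 0 were called in sc (median -0.01; 0.677% of all genes), with the tropomyosin Tpm1 (-0.92, adjusted p = 0.418) and vinculin, Vcl (-0.27, adjusted p = 0.435) at the smallest p. Tpm1 was at 9.0 to 9.27 on the sc KO arrays, against 12.26 and 10.53 on sc286WT and sc307WT, both rich in skeletal muscle markers, and 8.96 to 9.24 on the other 3 sc WT arrays. In g, 1 of the 16 fell, near the 6.27% of all genes called lower. It was Flna, the actin crosslinker filamin A (-0.29, SE 0.09, adjusted p = 0.0335; 10.64 in g KO and 10.93 in g WT), and the median was 0.12. Flna was also the 1 contractile gene called between WT depots, higher in g (0.54, SE 0.09, adjusted p = 0.000153). There 9.30% of all genes were called higher.

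Of 12 further pericyte genes 0 were called in sc (median -0.26), where the proteoglycan Cspg4, also called NG2 (-0.56, adjusted p = 0.0807), and the potassium channel subunit Abcc9 (-0.56, adjusted p = 0.26) had the smallest p. In g, 1 of the 12 rose, where 5.01% of all genes were called higher. It was the chloride channel Ano1 (0.63, SE 0.19, adjusted p = 0.0343), and the list median was 0.19. Between WT depots the 7 lower genes included Abcc9 (-0.96, adjusted p = 0.00175), the adhesion molecule Mcam (-0.76, adjusted p = 0.00319), Cspg4 (-0.62, adjusted p = 0.00422) and the receptor Notch3 (-0.52, adjusted p = 0.0124). Rgs5 was lower there too, as given above. Over all genes 8.48% were called lower in g WT than in sc WT. Cspg4 exceeded the 95th percentile of the negative controls on 7 of 20 arrays and Notch3 on 6. Among KO adipocytes 0 of the 12 were lower in g and 1, Ano1, was higher (0.91, adjusted p = 0.00706). Of all genes 1.27% were called lower there and 2.87% higher.

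Of 14 cofactors and repressors of SRF 0 were called in sc (median -0.06), with the LIM protein Fhl1 (-0.41, adjusted p = 0.189) and the homeodomain protein Hopx (-0.22, adjusted p = 0.384) at the smallest p. In g, 2 of the 14 fell, where 6.27% of all genes were called lower. They were the actin-sensing SRF coactivators Mrtfa (-0.35, SE 0.11, adjusted p = 0.045; 6.67 in g KO and 7.01 in g WT) and Mrtfb (-0.38, SE 0.10, adjusted p = 0.0183; 8.42 in g KO and 8.81 in g WT). Both were higher in g than in sc among WT adipocytes, by 0.35 (adjusted p = 0.0315) and 0.31 (adjusted p = 0.0391). The list median in g was 0.09. Mrtfa exceeded the 95th percentile of the negative controls on 0 of 20 arrays.

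Of 14 further genes of TGF-beta ligands, storage and activation 1 was called in each KO comparison, both times lower. Over all genes 0.379% were called lower in sc and 6.27% in g, so the 1 of 14 in g is near that share. In sc the latent TGF-beta binding protein Ltbp3 fell (-0.61, SE 0.13, adjusted p = 0.0386; 9.09 in sc KO and 9.70 in sc WT), with a list median of -0.07 over 14 genes. In g the integrin subunit Itgav, part of receptors that free TGF-beta from its latent complex, fell (-0.36, SE 0.08, adjusted p = 0.00827), with a list median of 0.00. Among WT adipocytes Ltbp1 (0.57, adjusted p = 0.000687), Itgav (0.40, adjusted p = 0.00192) and Tgfb3 (0.54, adjusted p = 0.00462) were higher and Itgb6 (-0.63, adjusted p = 0.00133) and Ltbp3 (-0.58, adjusted p = 0.00467) lower in g than in sc. Among KO adipocytes Tgfb3 (0.61, adjusted p = 0.00674), Tgfb2 (0.73, adjusted p = 0.0194) and Ltbp1 (0.44, adjusted p = 0.0197) were higher in g. Over all genes 9.30% were called higher and 8.48% lower in g among WT adipocytes, and 2.87% higher among KO adipocytes. Tgfb2 exceeded the 95th percentile of the negative controls on 0 of 20 arrays, Itgb6 on 1, Ltbp1 on 5 and Tgfb3 on 13, so the differences of these genes are of dim signals.

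Of 10 other receptors and co-receptors 0 were called in sc (median -0.03), where Acvr1b, an activin type I receptor, had the smallest p (-0.51, adjusted p = 0.0811), followed by endoglin, Eng (-0.31, adjusted p = 0.537). In g, 1 of the 10 rose, where 5.01% of all genes were called higher. It was Acvr1c, the type I receptor ALK7, which is known for its high expression in fat cells (0.75, SE 0.14, adjusted p = 0.00184). Its mean was 9.40 in g KO and 8.65 in g WT, a direction opposite to Tgfbr1 and Tgfbr2. Acvr1c was also lower in g WT than in sc WT adipocytes (-0.76, adjusted p = 0.000726). Of 12 SMADs and regulators 0 were called in sc (median -0.07), with Pmepa1, an inhibitor of the pathway (-0.30, adjusted p = 0.488), and the corepressor Skil (-0.27, adjusted p = 0.531) at the smallest p. In g, 1 of the 12 fell and 1 rose, where 6.27% of all genes were called lower and 5.01% higher, and the median was -0.01. The corepressor Tgif1 fell (-0.79, SE 0.14, adjusted p = 0.000812). Zfyve9, also called SARA, which presents SMADs to the receptor, rose (0.44, SE 0.10, adjusted p = 0.00524). Tgif1 exceeded the 95th percentile of the negative controls on 5 of 20 arrays and Zfyve9 on 8. None of Smad2, Smad3, Smad4, Smad6 and Smad7, named here after their values were seen, was called in either KO comparison. In g WT against sc WT Tgif1 was higher (1.08, adjusted p = 1.38e-05), and Zfyve9 (-0.46, adjusted p = 0.00196), Pmepa1 (-0.65, adjusted p = 0.00391) and the ubiquitin ligase Smurf1 (-0.34, adjusted p = 0.0386) were lower.

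Of 15 genes known to be induced by TGF-beta 13 were measured, and the other two are not analysed here. In g, 5 of the 13 fell and 0 rose, where 6.27% of all genes were called lower and 5.01% higher (median -0.30, against 0.02 for all genes). Timp1 exceeded the 95th percentile of negative controls on 6 of 20 arrays. They were the protease inhibitor Timp1 (-1.46, SE 0.26, adjusted p = 0.00121; 6.35 in g KO and 7.81 in g WT), the fibrillar collagens Col3a1 (-0.71, SE 0.16, adjusted p = 0.00686) and Col1a2 (-0.49, SE 0.14, adjusted p = 0.0271), the matrix protein periostin, Postn (-0.85, SE 0.26, adjusted p = 0.04), and the collagen crosslinker Lox (-0.68, adjusted p = 0.0427), the last chosen after its values were seen. In sc, 1 fell, Postn (-1.17, SE 0.26, adjusted p = 0.04; 8.82 in sc KO and 9.98 in sc WT), with a median of -0.24 against 0.01. Between WT depots 4 were higher in g, among them Timp1 (1.94, adjusted p = 3.27e-05), fibronectin, Fn1 (0.81, adjusted p = 0.000182), and the proteoglycan Vcan (0.58, adjusted p = 0.000518), and 1 was lower, Lox (-0.84, adjusted p = 0.00796). The fourth was Tgfbi (0.44, adjusted p = 0.00272). The shares over all genes were 0.379% called lower in sc, and 9.30% higher and 8.48% lower between WT depots. The 1 lower gene of 13 between WT depots is near that share. Several of these genes are also made by fibroblasts and macrophages. In g 3 of 8 fibroblast markers fell (Dcn, Lum and Dpt, named after their values were seen), beside 6.27% of all genes. The other 5 fibroblast markers were not called, and the median of the 8 was -0.13. The part of these cells in the falls was not tested.

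**Figure D5:**
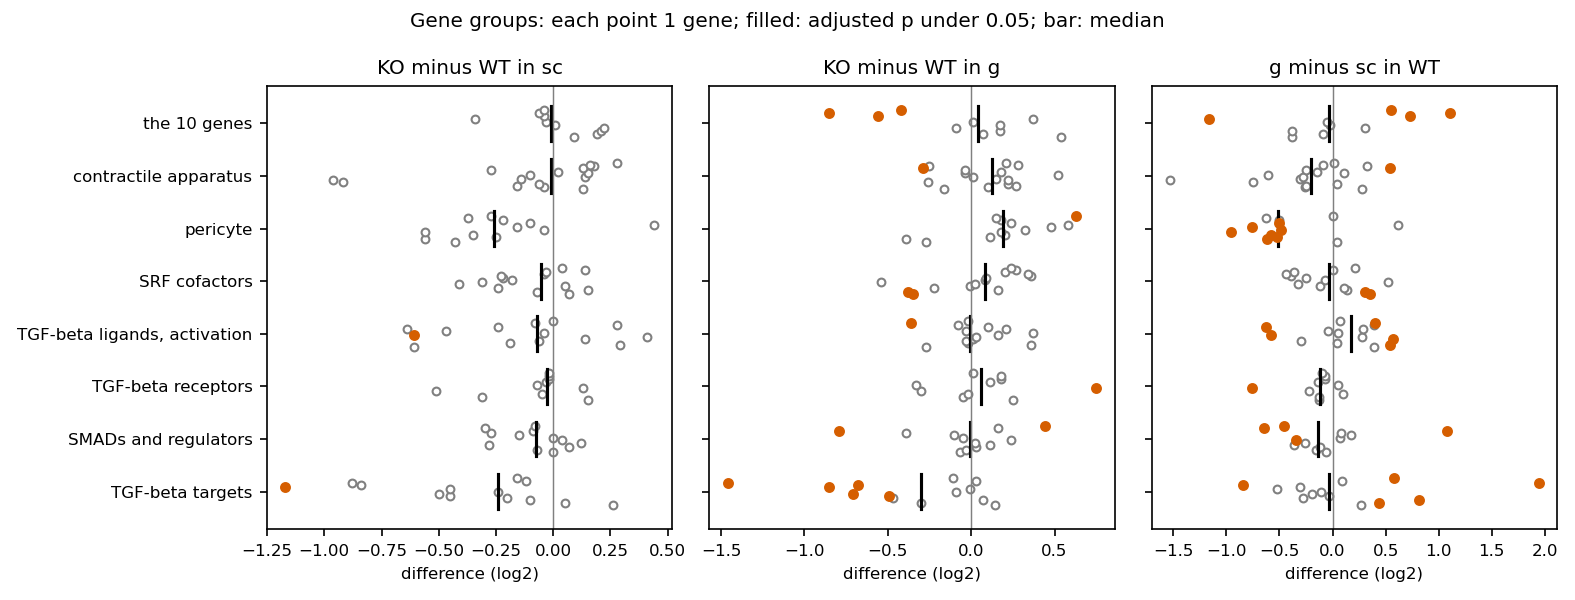
Log2 differences of the 10 genes and of 7 further gene groups in 3 comparisons. Each point is 1 gene, filled points have an adjusted p under 0.05, and bars are group medians. In g KO against g WT the TGF-beta targets have a median of -0.30 with 5 genes called lower, and the contractile genes a median of 0.12 with 1.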

How the data were processed

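Per the labels' protocols total RNA of each sample was labelled with biotin for expression arrays. Per the submitters' processing notes the authors used RMA and limma, and what was deposited is a log2 signal for each probe set. Versions, genome build and the arrays normalized together are not stated in the labels. The series' design text names another gene for the sc arrays, while every sample label says Olfm2, which was used. The table held 28846 probe sets, of which 6640 were controls, 2634 had no symbol here and 19572 had 1 symbol. For 55 genes with several probe sets the one with the highest mean was kept, which left 19505 genes, all matched by Entrez identifier to RefSeq (GRCm38.p6).

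In R 4.3.3 with limma 3.58.1 a fit with 4 group means (16 residual degrees of freedom) and no covariate gave 5 comparisons; p-values are two-sided and Benjamini-Hochberg adjusted over 19505 genes, and called means an adjusted p under 0.05. Genes named beyond the 10 and Olfm2 are, of each of 7 pathway lists, called genes (at most 4 per direction, smallest p first) or else the 2 with the smallest p, and the 5 most alike. Of 186 genes in 15 lists 175 were measured. The 10 genes and all lists were chosen with earlier results of these data known, as were the limits of 7 for hepatocyte-high and skeletal-muscle-high arrays; the limit of 8 for lymphocyte-high ones was set after the data were seen. Correlations over arrays used residuals from group means and 100000 permutations within groups.

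Sample numbers occur once per depot, each with the same genotype in both depots. Residuals of same-numbered sc and g arrays correlated by -0.461 to 0.142 (2 of 10 pairs above 0.1), so they were not treated as pairs. These correlations cannot show that arrays of the same number are unrelated. On simulated data with 200 of 19505 genes changed 1.5-fold the fit recovered 58% in sc, 46% in g, 14% for the difference between depots, and 52% and 56% between WT and KO depots; at 2-fold 88%, 86%, 74%, 94% and 90%. The simulated noise was normal and independent between genes, with the same SD in all groups, and each setting was drawn once. In the data limma called 11.3% of genes in g and 17.8% between WT depots, so the simulated rates need not hold for these arrays. For arrays no read depth exists, and their number limits the precision. Alternatives were another normalization, a filter on dim genes, another variance prior, a block, covariates and arrays left out.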

Additional observations from a re-analysis of the deposited data

Results flagged for a closer look

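Of 44 groups checked (11 genes, with Olfm2, in 4 groups) 3 held an array far from the other 4, where chance flags about 1 in 20 groups. Cnn1 was 6.16 on sc300KO, while the other sc KO arrays lay between 5.16 and 5.43. Tgfbr2 was 8.08 on sc307WT, while the other sc WT arrays lay between 8.38 and 8.41, and 8.32 on g300KO, beside 8.47 to 8.52 on the other g KO arrays.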

How the results depend on the processing

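The 3 calls in g and the 4 calls between WT depots held when any 1 array was left out (3 to 3 and 4 to 4 of 10), and under quantile normalization, the filter on dim genes, another variance prior, the skeletal muscle covariate, the mean of all probe sets and the samples without skeletal-muscle-high arrays. With the hepatocyte covariate the g count was 2. In g the count was 0 with the macrophage covariate and 0 without the hepatocyte-high arrays, where 1 g KO array is left. Between WT depots it was 0 with the macrophage covariate. Between KO depots it was 1 instead of 0 without the lymphocyte-high arrays, an alternative chosen after the data were seen. The count in sc and that for the difference between depots were 0 under every alternative. With the sample number as a replicate block (consensus correlation 0.0863) the counts were 0 in sc, 3 in g and 0 for the difference. They were 4 between WT depots and 0 between KO depots, so the block changed no count for the 10 genes. Over all genes the block gave 3931 calls between WT depots instead of 3468, and 969 between KO depots instead of 806. It gave 32 for the difference instead of 15, 140 in sc and 2206 in g. For all genes the g count of 2200 became 1089 with the hepatocyte covariate, 43 without the hepatocyte-high arrays and 1 with the macrophage covariate. The sc count of 132 was 44 with the macrophage and 275 with the skeletal muscle covariate, the count of 15 for the difference ran down to 0 with the macrophage covariate and up to 41 without sc286WT, that of 3468 between WT depots was 1 with the macrophage covariate, and that of 806 between KO depots was 29 with it. The cause was not tested.

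Small uncalled differences turned sign. For the difference between depots and for KO depots only Rgs5, Tgfb1, Tgfbr1 and Tgfbr2 were followed one by one, a choice made after all 10 had been computed and seen to turn sign often, so the turns of the other 6 there are not listed. In KO minus WT in sc, without the hepatocyte-high arrays, they were -0.22 for Acta2, -0.03 for Tagln, 0.00 for Myh11, 0.11 for Tgfb1 and 0.07 for Tgfbr2; with the hepatocyte covariate -0.04 for Acta2, -0.05 for Myocd, 0.10 for Tgfb1 and 0.04 for Tgfbr1; with the macrophage covariate -0.13 for Acta2, -0.03 for Cnn1, -0.01 for Myocd, 0.10 for Tgfb1 and 0.17 for Tgfbr1. With the skeletal muscle covariate they were -0.03 for Acta2, -0.10 for Myocd, 0.01 for Srf, 0.02 for Tgfb1 and 0.02 for Tgfbr1, without the skeletal-muscle-high arrays -0.30 for Myocd and 0.07 for Srf, and without the lymphocyte-high arrays -0.08 for Myocd, 0.08 for Srf and 0.02 for Rgs5. In KO minus WT in g, Tagln was -0.10 with the hepatocyte covariate, and with the macrophage covariate Acta2 was -0.02, Tagln -0.28, Myh11 -0.32, Srf -0.06 and Rgs5 -0.14. In g minus sc in WT the macrophage covariate gave 0.64 for Acta2, 0.56 for Tagln, 0.50 for Myh11, 0.07 for Myocd and 0.07 for Srf; Myocd was 0.01 under quantile normalization, and Srf was 0.03 with the skeletal muscle covariate, 0.03 without the skeletal-muscle-high and 0.01 without the lymphocyte-high arrays. In g minus sc in KO the macrophage covariate gave 0.15 for Rgs5, -0.24 for Tgfb1 and -0.39 for Tgfbr1, and without the hepatocyte-high arrays Rgs5 was 0.08 and Tgfbr2 -0.08. With 1 array left out the sc differences ran from -0.04 to 0.28 for Acta2, -0.10 to 0.13 for Myocd, -0.08 to 0.04 for Srf, -0.11 to 0.03 for Tgfb1, -0.14 to 0.03 for Tgfbr1 and -0.12 to 0.01 for Tgfbr2; the g differences from 0.00 to 0.18 for Tagln, -0.02 to 0.05 for Srf and -0.47 to 0.14 for Cnn1; and those between WT depots from -0.19 to 0.04 for Tagln, -0.15 to 0.10 for Myocd and -0.10 to 0.01 for Srf.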
